A study of Mus musculus with 6 samples.

Results

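Oxidative phosphorylation is carried out by complexes I to IV of the mitochondrial respiratory chain and by complex V, the ATP synthase. Their subunits were taken as the protein-coding genes whose symbol begins with Nduf followed by a, b, c, s or v and a digit, equals Sdha, Sdhb, Sdhc or Sdhd, begins with Uqcr, Atp5 or Cox with a digit from 4 to 8, or is mitochondrial (mt-Nd, mt-Co, mt-Atp, mt-Cytb). This took 93 of 23390 genes in the table, of which 80 are encoded in the nucleus and 13 in the mitochondrial genome. The RNA came from viable epithelial cells of the small intestine (C57BL/6 background), sorted for the epithelial marker EpCAM and against the leukocyte marker CD45. There were 3 libraries from Vil.Cre Maf.flox mice, in which Cre under the villin promoter deletes floxed Maf in the intestinal epithelium, and 3 from Maf.flox controls, which carry the floxed allele without Cre. The comparison asks how epithelial RNA differs once c-Maf, a transcription factor of the leucine zipper class, is lost. No group carried Cre alone, ages are not labelled, and the labels do not tie each library to its own mouse, so p-values reflect only how far these libraries differ among themselves.

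Complexes I and II take electrons from NADH and succinate, complex III passes them to cytochrome c, and complex IV passes them to oxygen. Complexes I, III and IV pump protons, and the ATP synthase uses the proton gradient to make ATP. Most subunits are encoded in the nucleus and imported, while the mitochondrial genome encodes a few membrane subunits of complexes I, III, IV and V, so that both genomes supply parts of the same machines. In the small intestine, absorptive enterocytes draw on this ATP for active nutrient transport.

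Total counts were between 17464355 and 24802525 per library. Maf itself had 3893 to 9398 counts in the controls and 1 to 16 in Vil.Cre Maf.flox. By counts of Xist and Y-linked genes, Maf.flox replicate 1 and Vil.Cre Maf.flox replicates 1 and 2 were male and the other 3 libraries female, so sex was not balanced. Summed CPM (counts scaled to library size, with TMM factors) of 10 enterocyte markers were between 14585 and 28483 in the controls and between 9281 and 14350 in Vil.Cre Maf.flox, and 9 of these markers had a lower mean there. The largest differences in mean CPM, from Maf.flox to Vil.Cre Maf.flox, were those of Anpep (5397 to 1048), Fabp2 (3905 to 905) and Apoa1 (5000 to 2035, with overlap). Vil1 (2718 to 2077), Sis (2302 to 1985), Epcam (2178 to 2038.5) and Krt20 (1300.5 to 1315) differed less and overlapped. Of the 10 markers only Anpep had an adjusted p under 0.05 (0.0133, edgeR). In bulk RNA, fewer cells of a type and less RNA per cell cannot be told apart. CPM is a relative scale, so absolute amounts of any RNA per cell were not measured.

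Of the 93 subunit genes, 91 passed the filter on low counts, and 88 of these had a higher mean in Vil.Cre Maf.flox, against 48.4% of all 13740 genes tested. No subunit passed the quasi-likelihood test of edgeR after Benjamini-Hochberg adjustment over all genes (adjusted p under 0.05), a threshold that 0.546% of all genes passed. At an unadjusted p under 0.05, 45 subunits were higher in Vil.Cre Maf.flox and 0 were lower, where 7.11% of all genes were higher and 9.25% lower. For 52 subunits all 3 Vil.Cre Maf.flox libraries lay above all 3 controls, a pattern that 10.1% of all genes had, and for 0 subunits they lay below, which 10.5% of all genes did. The differences were small. The median log2 fold change (Vil.Cre Maf.flox over Maf.flox) was 0.26 for the 78 nuclear subunits tested, a ratio of 1.20, and 0.16 for the 13 mitochondrially encoded ones, a ratio of 1.12, against -0.01 for all genes. The genes not tested were Cox6a2, with 0 to 5 counts per library, and Cox8b, with 2 counts in 1 control and 0 elsewhere. They encode heart and skeletal muscle forms of complex IV subunits. The 3 subunits with a mean below that of the controls were Cox6b2, Cox7a2l and Ndufa6.

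**Figure D1:**
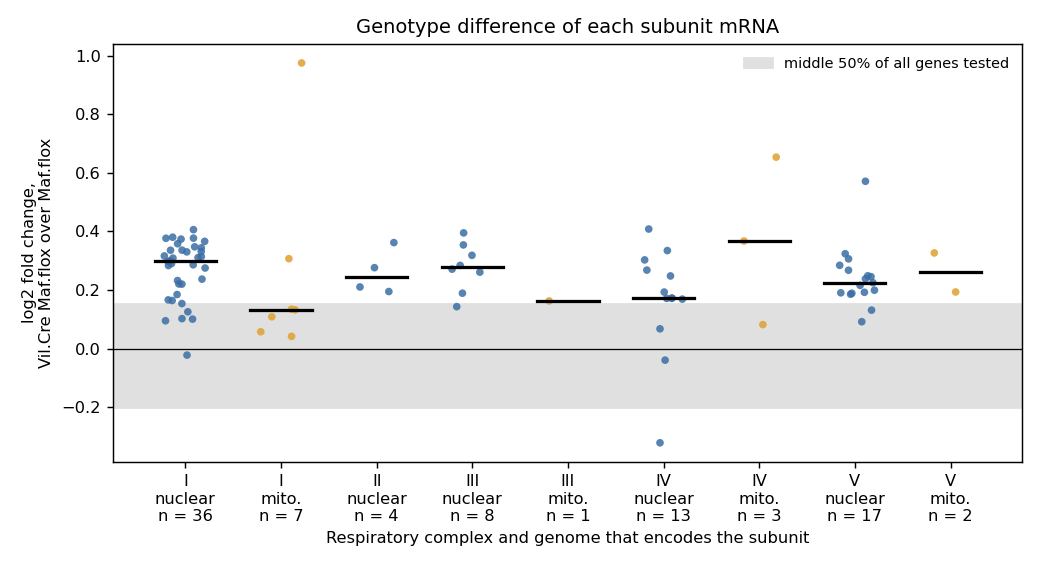
Each point is 1 subunit gene, placed by complex and by the genome that encodes it (nuclear in blue, mitochondrial in orange), with its log2 fold change of Vil.Cre Maf.flox over Maf.flox on the y axis; black lines are medians and the grey band holds the middle 50% of all genes tested. The median lies above 0 in every class, between 0.13 for the mitochondrially encoded subunits of complex I and 0.37 for those of complex IV, and 3 of 91 points lie below 0.

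The libraries of each group did not move as a block. The nuclear subunits made up 1.83, 1.73 and 1.95% of all counts in the controls (replicates 1, 2 and 3 in order) and 2.33, 2.22 and 2.16% where Maf was deleted, so the groups did not overlap on this measure. The median deviation of nuclear subunits from their mean over the 6 libraries, in log2 CPM, was -0.10, -0.17 and -0.10 in the controls and 0.22, 0.18 and -0.02 in Vil.Cre Maf.flox. Vil.Cre Maf.flox replicate 3 was thus the lowest of its group, and this held for 75 of 78 nuclear subunits. It lay above all controls for 49 of them, whereas replicates 1 and 2 lay above all controls for 71 and 73. Among the controls, replicate 2 was the lowest of all 6 libraries for 54 nuclear subunits. The median coefficient of variation of a nuclear subunit was 4.25% in Maf.flox and 9.17% in Vil.Cre Maf.flox.

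**Figure D2:**
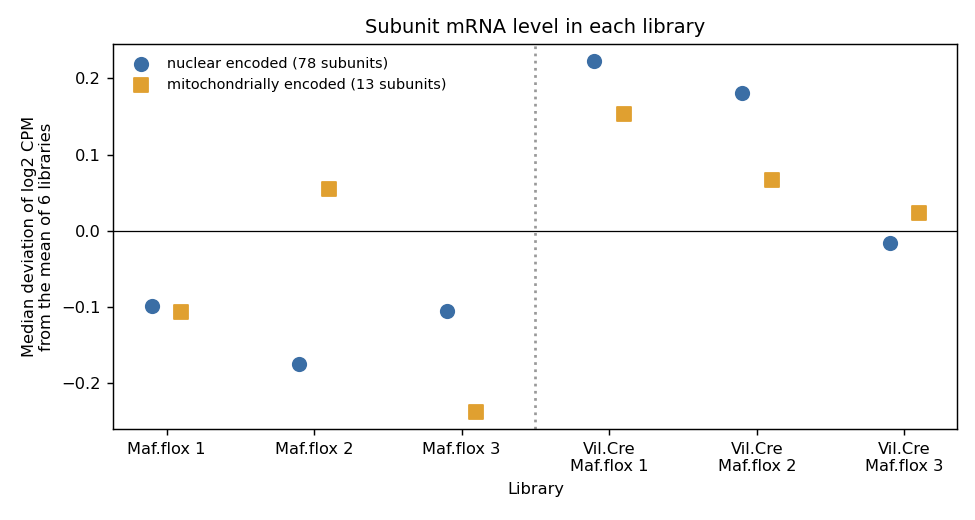
The y axis is the median, over the 78 nuclear (blue circles) or 13 mitochondrially encoded subunits (orange squares), of the deviation of log2 CPM from the gene's mean over the 6 libraries on the x axis. Nuclear medians are -0.17 to -0.10 in the 3 controls and -0.02 to 0.22 in the 3 Vil.Cre Maf.flox libraries, while the mitochondrial values of the groups overlap.

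The low library of the Vil.Cre Maf.flox group was its only female. Within the male libraries (1 control, 2 Vil.Cre Maf.flox) the median log2 difference was 0.30 for nuclear subunits, with 73 of 78 above 0, and 0.26 for mitochondrially encoded ones, with 13 of 13 above 0. Within the female libraries (2 controls, 1 Vil.Cre Maf.flox) it was 0.12 for nuclear subunits, with 67 of 78 above 0, and 0.16 for mitochondrially encoded ones, with 10 of 13 above 0. The nuclear median was thus above the mitochondrial one in males and below it in females. The median over all genes was 0.00432 in males and -0.01 in females. In a fit with a term for sex, 35 subunits were higher at an unadjusted p under 0.05, where 7.05% of all genes were. A sex by genotype term was passed by 0 of 13740 genes in edgeR's test with adjustment, and 2 subunits had an unadjusted p under 0.05 for it, where 2.78% of all genes did.

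How many subunits passed the unadjusted threshold depended on single libraries. The 45 subunits higher at that level became 34, 16 and 37 when Maf.flox replicate 1, 2 or 3 was left out. They became 18, 28 and 57 when Vil.Cre Maf.flox replicate 1, 2 or 3 was left out. Of all genes, 5.63, 3.87 and 8.92% were higher at that level in the first 3 of these fits and 3.63, 6.82 and 8.95% in the last 3. Between 84 and 88 of the 91 subunits stayed above 0 in these fits. DESeq2, which called 760 genes in all (5.64% of those given an adjusted p), called 10 subunits, namely Atp5g1, Cox5a, mt-Nd1, mt-Nd4l, Ndufa10, Ndufa5, Ndufb6, Ndufs3, Ndufs8 and Ndufv2, each with a higher mean in Vil.Cre Maf.flox.

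**Figure D3:**
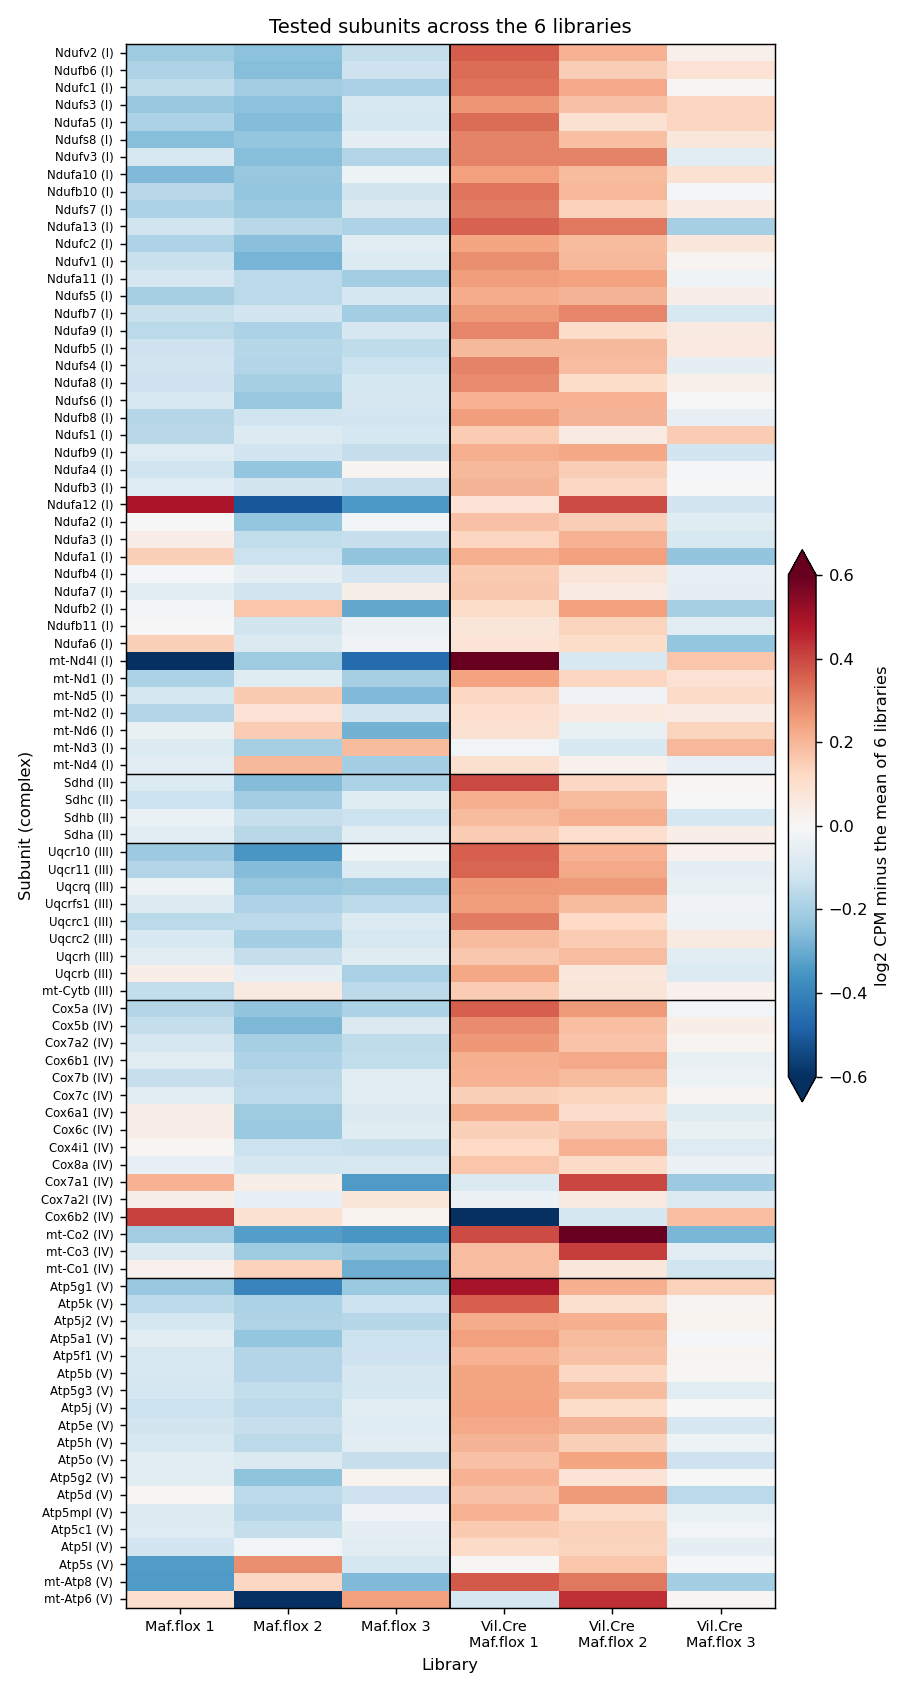
Each row is a tested subunit, grouped by complex with the mitochondrially encoded ones last in each block, each column is 1 library, and the colour is the log2 CPM minus the gene's mean over the 6 libraries (red above, blue below, saturated at 0.6 on either side). Most nuclear rows are blue in the controls and red in Vil.Cre Maf.flox replicates 1 and 2, and Vil.Cre Maf.flox replicate 3 is paler and the lowest of its group for 75 of 78 nuclear subunits.

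Complex I is the largest of the complexes, with a hydrophilic arm that oxidises NADH and a membrane arm that pumps protons. All 36 nuclear members were tested, 35 had a higher mean in Vil.Cre Maf.flox, and their median log2 fold change was 0.30. In 24 of them all Vil.Cre Maf.flox libraries lay above all controls, a pattern that 10.1% of all genes had. At an unadjusted p under 0.05 in edgeR 25 were higher, where 7.11% of all genes were. The 7 nuclear core subunits, which carry the flavin, the iron-sulphur clusters or the quinone site, were above all controls in every Vil.Cre Maf.flox library, with a median log2 fold change of 0.34. The 29 accessory subunits had a median of 0.29, with 17 free of overlap.

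Ndufs3 (chromosome 2, GRCm38 positions 90894634 to 90904827, minus strand), a core subunit of the quinone-reducing part, had 82.9, 81.8 and 90.9 CPM in Maf.flox and 116.5, 109.5 and 105.9 CPM in Vil.Cre Maf.flox. The highest control was below the lowest Vil.Cre Maf.flox library, with a log2 fold change of 0.38 (SE 0.0947, adjusted p = 0.11, edgeR). Ndufv2, which carries an iron-sulphur cluster in the NADH-oxidising part, had 137.2, 134.2 and 143.9 CPM in the controls and 204.6, 183.6 and 162.4 CPM in Vil.Cre Maf.flox. Again the groups did not overlap, and its log2 fold change of 0.41 was the largest among the nuclear subunits of the complex (SE 0.111, adjusted p = 0.132, edgeR). Ndufb6, an accessory subunit of the membrane arm, had 47.5, 45.2 and 49.5 CPM in the controls and 68.1, 59.8 and 57.3 CPM in Vil.Cre Maf.flox, a log2 fold change of 0.38 (SE 0.101, adjusted p = 0.124, edgeR). Of its transcript sequence, 28.2% of all 100-base stretches also occur in another annotated gene, Smim27, which overlaps it on the opposite strand. Whether the counting used strand is not given in the sources used here.

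Other core subunits lay in a narrow band. Ndufv1, which binds the flavin that takes electrons from NADH, had a log2 fold change of 0.33, and Ndufs1, the iron-sulphur subunit beside it, 0.24. Ndufs7 and Ndufs8, which line the path to ubiquinone, had 0.34 and 0.37. For Ndufs1 the pattern within the group differed, since Vil.Cre Maf.flox replicate 3 had 152.2 CPM, as replicate 1 had 152.3, and replicate 2 had 141.7. The controls had 122.0, 129.3 and 127.2 CPM.

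Accessory subunits spread more widely. Ndufa6 had 151.9, 129.7 and 135.8 CPM in the controls and 145.5, 148.4 and 117.2 CPM in Vil.Cre Maf.flox, with the groups intermixed and a log2 fold change of -0.02. Its sign turned with upper quartile scaling, where it was 0.00356. Ndufa12, singled out after its values were seen for its spread between libraries, had 59.2, 29.7 and 33.3 CPM in the controls and 44.8, 55.4 and 39.0 CPM in Vil.Cre Maf.flox. Ndufa4, which is now often counted with complex IV, has the highest level per length of the nuclear subunits with an Nduf symbol. It averaged 170.6 FPKM (fragments scaled to annotated gene length and library size) over the 6 libraries, and its log2 fold change was 0.22. The lowest by that scale was Ndufb2, at 1.19 FPKM. The X-linked subunits Ndufa1 and Ndufb11 had log2 fold changes of 0.15 and 0.10, and both overlapped between the groups.

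Complex II, succinate dehydrogenase, also belongs to the tricarboxylic acid cycle and is wholly encoded in the nucleus. All 4 members had a higher mean in Vil.Cre Maf.flox, with a median log2 fold change of 0.24. For 3 of 4 all Vil.Cre Maf.flox libraries lay above all controls, a pattern that 10.1% of all genes had. Sdhd, a membrane anchor, had 259.9, 229.6 and 240.7 CPM in the controls and 361.3, 299.7 and 277.6 CPM in Vil.Cre Maf.flox, so its lowest Vil.Cre Maf.flox library was above the highest control. This gave a log2 fold change of 0.36 (SE 0.126, adjusted p = 0.208, edgeR). Sdhc, the other anchor, had 0.28, Sdhb, the iron-sulphur subunit, 0.21, and Sdha, the flavoprotein that oxidises succinate, 0.19. Sdha had 643.8, 599.0 and 641.8 CPM in the controls and 746.5, 719.6 and 691.3 CPM in Vil.Cre Maf.flox, again with no overlap. For Sdhb, Vil.Cre Maf.flox replicate 3 at 240.1 CPM lay among the controls, which ran from 234.6 to 250.8 CPM.

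Complex III, the cytochrome bc1 complex, moves electrons from ubiquinol to cytochrome c. All 8 nuclear members had a higher mean in Vil.Cre Maf.flox, with a median log2 fold change of 0.28. For 5 all Vil.Cre Maf.flox libraries lay above all controls, a pattern that 10.1% of all genes had. Uqcr10, a small subunit beside the Rieske protein and the highest of the complex's nuclear members at 316.8 FPKM, had 157.2, 143.5 and 179.2 CPM in the controls and 234.3, 210.8 and 185.9 CPM in Vil.Cre Maf.flox. The highest control and the lowest Vil.Cre Maf.flox library were close but did not cross, with a log2 fold change of 0.40 (SE 0.127, adjusted p = 0.182, edgeR). Uqcr11, another small subunit, had 0.35, Uqcrfs1, the Rieske iron-sulphur protein, 0.28, and the core proteins Uqcrc1 and Uqcrc2 0.27 and 0.26. Uqcrq, which binds near cytochrome b, had 0.32, but its lowest Vil.Cre Maf.flox library at 274.7 CPM was below the highest control at 277.5 CPM. Uqcrc2 was the lowest of these genes per length, at 131.5 FPKM.

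Complex IV, cytochrome c oxidase, has the most tissue-specific isoforms among its nuclear subunits. Of 15 nuclear members, 13 were tested, 11 had a higher mean in Vil.Cre Maf.flox, and the median log2 fold change was 0.17. In 7 all Vil.Cre Maf.flox libraries lay above all controls, a pattern that 10.1% of all genes had. At an unadjusted p under 0.05 in edgeR 5 were higher, where 7.11% of all genes were. Cox5a (chromosome 9, positions 57521274 to 57532426, plus strand), a matrix-side subunit, had 186.8, 179.0 and 184.4 CPM in the controls and 270.2, 251.6 and 208.3 CPM in Vil.Cre Maf.flox. The controls were within a few CPM of each other while the Vil.Cre Maf.flox libraries spread widely above them, for a log2 fold change of 0.41 (SE 0.118, adjusted p = 0.148, edgeR). Its zinc-binding partner Cox5b had 0.33 and no overlap. Cox4i1, the ubiquitous form of subunit 4, had 0.17 with overlap, from 749.7 to 826.2 CPM in the controls and from 779.7 to 949.4 CPM in Vil.Cre Maf.flox. Cox6a1 was the highest nuclear member per length, at 825.4 FPKM, and had 0.17 with overlap. Cox7b, which is X-linked, had 0.25 without overlap.

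The isoforms of complex IV subunits did not share one pattern. Cox7a2, the widely expressed form of subunit 7a, had a log2 fold change of 0.30 without overlap. Cox7a1, known as the heart and skeletal muscle form, had 55.9, 49.5 and 38.2 CPM in the controls and 45.5, 63.7 and 41.5 CPM in Vil.Cre Maf.flox, a log2 fold change of 0.07 whose sign turned in the fit with a term for sex (-0.06). Cox7a1 made up 36.0 ± 4.2% of the summed FPKM of Cox7a1 and Cox7a2 in the controls and 32.4 ± 4.7% with Maf deleted (SD, n = 3 each), a difference smaller than the spread. Of 4 muscle markers, 3 were in the table, and their summed CPM was between 0 and 0.171 in every library. Cox7a2l is known for a role in joining complexes III and IV into supercomplexes, which were not measured here. It had 194.8, 184.2 and 200.4 CPM in the controls and 186.0, 197.9 and 180.0 CPM in Vil.Cre Maf.flox, a log2 fold change of -0.04. Cox6b1, the common form of subunit 6b, had 0.27 without overlap, while Cox6b2, the testis form, had 1.98 FPKM on average against 441.1 for Cox6b1 and a log2 fold change of -0.32 from 28 to 68 counts per library. Cox8a had 0.17 without overlap.

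Complex V makes ATP in its F1 head, driven by rotation of a ring of c subunits in the membrane. All 17 nuclear members had a higher mean in Vil.Cre Maf.flox, with a median log2 fold change of 0.23. For 10 all Vil.Cre Maf.flox libraries lay above all controls, a pattern that 10.1% of all genes had. At an unadjusted p under 0.05 in edgeR 5 were higher, where 7.11% of all genes were. Atp5a1, the alpha subunit of the head and the highest nuclear member per length at 661.0 FPKM, had 1971, 1754 and 1884 CPM in the controls and 2441, 2348 and 2042 CPM in Vil.Cre Maf.flox. Atp5b, the catalytic beta subunit, had 2406, 2276 and 2394 CPM in the controls and 3027, 2803 and 2577 CPM in Vil.Cre Maf.flox. Neither overlapped between the groups, and their log2 fold changes were 0.28 and 0.25. Atp5c1, the rotating gamma subunit, had 0.19 without overlap, and the membrane subunits e (Atp5k) and f (Atp5j2) had 0.32 and 0.31 without overlap. Atp5s, a coupling factor rather than a fixed subunit, was the lowest at 4.01 FPKM and had 0.09 with overlap.

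The c subunit of the ring is encoded by Atp5g1, Atp5g2 and Atp5g3, whose products differ in their import peptides but give the same mature protein. Atp5g1 (ENSMUSG00000006057, chromosome 11, positions 96068852 to 96075670, minus strand) had 165.5, 147.2 and 166.2 CPM in the controls and 273.4, 224.8 and 213.5 CPM in Vil.Cre Maf.flox. All 3 Vil.Cre Maf.flox libraries were above all controls, with means of 159.6 ± 10.8 and 237.2 ± 31.8 CPM (SD, n = 3 each). Its log2 fold change of 0.57 was the largest of the nuclear subunits and its adjusted p the smallest of all subunits (SE 0.123, adjusted p = 0.0795, edgeR). It passed 0.05 with DESeq2 (adjusted p = 0.00186), with no filter on low counts, with a replicate block and without Maf.flox replicate 3, and over all alternatives its adjusted p ran from 0.00186 to 0.333. Atp5g3 had 579.4, 562.2 and 580.0 CPM in the controls and 734.1, 710.6 and 596.8 CPM in Vil.Cre Maf.flox, a log2 fold change of 0.25 (SE 0.122, adjusted p = 0.365, edgeR) without overlap. Atp5g2 had 173.2, 153.6 and 184.6 CPM in the controls and 210.1, 192.4 and 181.8 CPM in Vil.Cre Maf.flox, a log2 fold change of 0.19 with overlap. By FPKM, Atp5g3 gave most of this mRNA, and Atp5g1 made up 8.4, 7.9 and 8.3% of the summed FPKM of the 3 genes in the controls and 10.8, 9.4 and 10.2% in Vil.Cre Maf.flox. The share of Atp5g1 thus did not overlap between the groups, while the share of Atp5g3 was 66.3 ± 1.56% and 65.4 ± 1.39% (SD, n = 3 each). The size of these shares depends on the gene lengths behind FPKM, which are 4912, 1675 and 2181 bases for Atp5g1, Atp5g2 and Atp5g3. Their longest coding transcripts have 4715, 753 and 723 bases. In CPM, which leaves length out, the control means of Atp5g1 and Atp5g2 were 159.6 and 170.5.

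**Figure D4:**
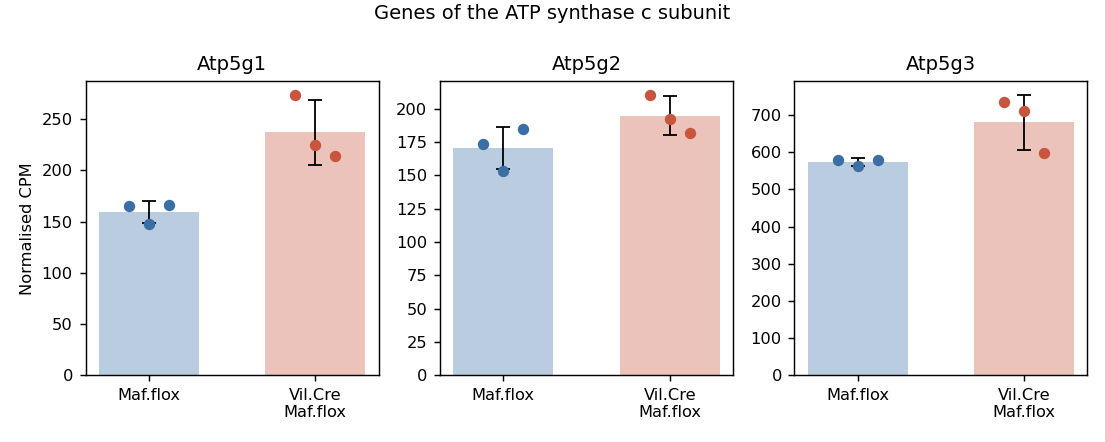
Bars are the mean normalised CPM of each c subunit gene in Maf.flox (blue) and Vil.Cre Maf.flox (red), each on its own axis starting at 0, points are the 3 libraries of a group and error bars the SD. Atp5g1 lies between 147.2 and 166.2 CPM in the controls and between 213.5 and 273.4 CPM in Vil.Cre Maf.flox, Atp5g3 also does not overlap, and Atp5g2 does.

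The promoters of these 3 genes are shown because they serve the same protein yet differ in the motifs they hold. RefSeq sequence (GRCm38.p6) from 250 bases before to 50 bases after each start is given on the gene's strand, at chr11:96075582-96075881 for Atp5g1, chr15:102670998-102671297 for Atp5g2 and chr2:73911277-73911576 for Atp5g3, all on the minus strand. Capitals mark matches to the palindromic NRF1 consensus and, upstream of it in Atp5g3, a match on the opposite strand to the consensus TCAAGGTCA of the oestrogen-related receptors.
Atp5g1: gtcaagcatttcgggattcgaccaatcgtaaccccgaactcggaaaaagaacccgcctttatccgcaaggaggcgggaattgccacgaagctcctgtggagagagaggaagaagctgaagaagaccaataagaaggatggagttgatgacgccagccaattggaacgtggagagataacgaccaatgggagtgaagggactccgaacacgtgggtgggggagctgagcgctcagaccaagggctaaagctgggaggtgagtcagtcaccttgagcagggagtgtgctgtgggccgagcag
Atp5g2: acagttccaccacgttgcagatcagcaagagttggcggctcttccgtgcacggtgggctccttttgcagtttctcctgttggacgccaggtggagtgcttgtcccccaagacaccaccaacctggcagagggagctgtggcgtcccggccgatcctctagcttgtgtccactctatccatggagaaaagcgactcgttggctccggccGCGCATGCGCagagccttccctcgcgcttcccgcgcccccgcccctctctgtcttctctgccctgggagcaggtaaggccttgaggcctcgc
Atp5g3: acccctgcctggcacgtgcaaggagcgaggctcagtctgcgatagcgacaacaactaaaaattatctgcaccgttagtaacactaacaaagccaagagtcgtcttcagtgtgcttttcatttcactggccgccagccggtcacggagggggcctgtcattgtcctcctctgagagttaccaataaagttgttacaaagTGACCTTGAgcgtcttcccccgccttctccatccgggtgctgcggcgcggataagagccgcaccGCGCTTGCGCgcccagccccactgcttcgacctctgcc
Atp5g1, with the largest log2 fold change of the 3 genes, held no exact match to the motifs searched in this window, while Atp5g2 and Atp5g3 each held an NRF1 match. Near matches were not searched.

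Promoter windows of the same length were matched for 67 subunit genes and compared with those of 27025 genes, on both strands. NRF1, a regulator of respiratory genes, had its consensus in 17 of 67 (25.4%), against 5.2% of all genes. The ETS consensus CCGGAAGT, bound by GABP, the other classical nuclear respiratory factor, was in 5 (7.5% against 4.3%). The YY1 consensus AAGATGGCG was in 7 (10.4% against 1.6%) and TCAAGGTCA in 2 (3.0% against 0.5%). The full palindromic Maf recognition element was in 0 of the 67, as it was in 1 gene of 27025, and its 7-base part TGCTGAC was in 0, against 5.3% of all genes. These are letters in a fixed window and say nothing of binding. The palindromic Maf element searched was 1 form of that element, and other forms were not searched. Its absence here therefore does not show that these promoters lack Maf-type sites. The 17 tested subunits with an NRF1 match had a median log2 fold change of 0.25 and the 49 without one 0.28, the 7 with a YY1 match 0.31 and the 59 without one 0.25.

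The 13 mitochondrially encoded subunits are cut from long transcripts of both strands of the mitochondrial genome. All 13 had a higher mean in Vil.Cre Maf.flox, 3 had an unadjusted p under 0.05 where 7.11% of all genes were higher at that level, and 3 did not overlap between the groups where 10.1% of all genes did not. Together they made up 4.78, 5.38 and 4.53% of all counts in Maf.flox and 5.73, 5.29 and 5.47% in Vil.Cre Maf.flox, so the second control lay within the Vil.Cre Maf.flox range. The summed CPM of nuclear subunits divided by that of mitochondrially encoded ones was 0.384, 0.321 and 0.429 in the controls and 0.407, 0.419 and 0.394 in Vil.Cre Maf.flox, and overlapped. Control replicate 3 was the lowest of the 6 libraries for 8 of 13 mitochondrial subunits, and control replicate 2, the lowest for most nuclear ones, was the highest control for 9 of 13. The median coefficient of variation was 14.27% in Maf.flox and 10.38% in Vil.Cre Maf.flox, wider in the controls than the 4.25% of the nuclear subunits. The counts of the mitochondrial rRNAs, which lack the long tails that poly-T beads select, were 0.154 to 0.458% of the controls' counts and 0.246 to 0.375% in Vil.Cre Maf.flox, lowest in control replicate 3. The part of RNA capture in these values was not tested.

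Levels of the mitochondrial mRNAs per length spanned from 16728 FPKM for mt-Co1, the catalytic subunit of complex IV, to 14.6 FPKM for mt-Nd3, a membrane subunit of complex I. The genes at the low end of this order largely share their sequence with copies in the nuclear genome. Copies of 7 mitochondrial genes lie side by side on chromosome 1, from position 24611535 to 24616197 on the minus strand, annotated as Gm28439, Gm10222, Gm28438, Gm28437, Gm10925, Gm28661 and Gm29216. Gm28661 matches mt-Co2 over 681 bases with 0 mismatches, Gm28437 matches mt-Co3 over 783 with 0, Gm10925 matches mt-Atp6 over 678 with 0 and Gm10222 matches mt-Nd4l over 294 with 0. Gm28439 covers 876 bases of mt-Nd4 with 0 mismatches, Gm28438 covers 345 of mt-Nd3 with 1, and Gm29216 covers 492 of mt-Co1 with 6. A read that lies wholly within an identical stretch cannot be placed by its sequence, while a read across a mismatch can be. How the authors' counting treated reads with several placements is not given in the sources used here.

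Of the 100-base stretches in each transcript, another annotated transcript also held 99.9% for mt-Co3, 99.5% for mt-Co2 and mt-Atp6, 98.5% for mt-Nd4l, 97.6% for mt-Nd3, 60.8% for mt-Nd4 and 30.8% for mt-Co1. The share was at most 3.2% for mt-Nd1, mt-Nd2, mt-Nd5, mt-Nd6, mt-Cytb and mt-Atp8. The 3 mitochondrial subunits with an unadjusted p under 0.05, mt-Nd4l, mt-Co2 and mt-Co3, were all among the 6 genes with over 50% shared, whose median log2 fold change was 0.28 against 0.15 for the 6 with at most 5%. mt-Atp8, at 58 to 84 counts per library, lies between mt-Co2 and mt-Atp6, and only annotated transcripts were searched, so the stretch between their copies was not compared. The end of mt-Atp8 is also the start of mt-Atp6, read in another frame, over 43 bases at MT:7927-7969, shown on the plus strand with no part marked.
mt-Atp8 and mt-Atp6 overlap: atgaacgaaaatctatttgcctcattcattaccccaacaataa
These bases belong to both genes, as do 7 bases shared by mt-Nd4l and mt-Nd4.

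**Figure D5:**
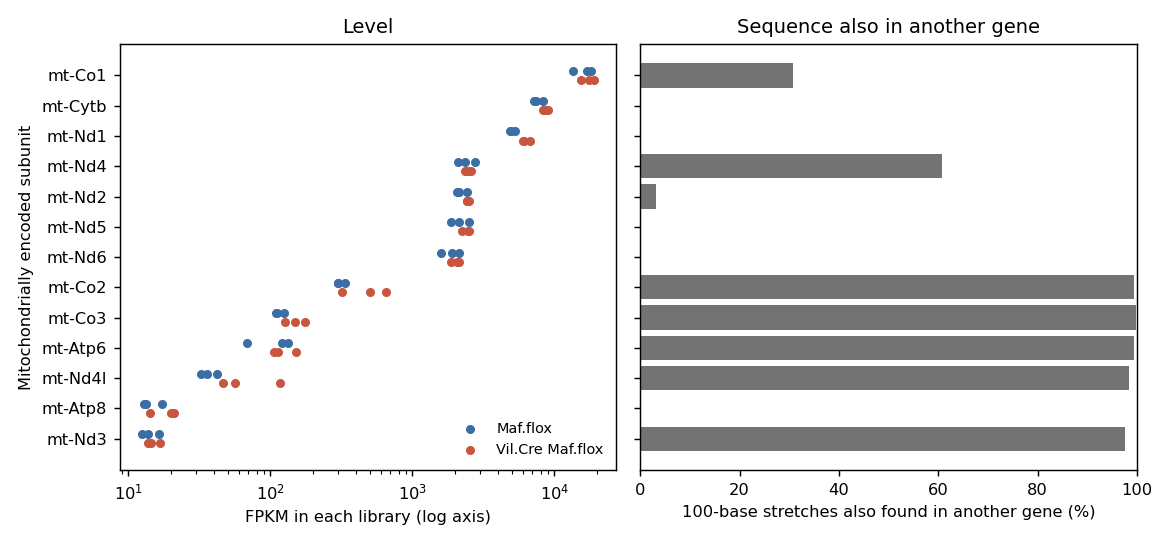
The left panel gives the FPKM of each mitochondrially encoded subunit in each library on a log axis (Maf.flox blue, Vil.Cre Maf.flox red), and the right panel the percentage of its 100-base stretches that also occur in another annotated gene. Levels run from 16728 FPKM on average for mt-Co1 to 14.6 for mt-Nd3, and of the 6 lowest genes all but mt-Atp8 share over 97% of these stretches.

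Of the subunits with little shared sequence, mt-Nd1, which forms part of the quinone channel of complex I, was the only one whose groups did not overlap. It had 4718, 5129 and 4694 CPM in the controls and 6378, 5892 and 5722 CPM in Vil.Cre Maf.flox, a log2 fold change of 0.31 (SE 0.141, adjusted p = 0.326, edgeR). mt-Nd2, mt-Nd5 and mt-Nd6, all membrane subunits of complex I, had 0.13, 0.13 and 0.11 with overlap. Unlike the other mitochondrial subunits, mt-Nd6 lies on the minus strand. Strand use in the counting is not given, and whether its counts hold reads of the opposite strand was not tested. mt-Cytb, the cytochrome b of complex III, had 8394, 9657 and 8338 CPM in the controls and 10331, 9765 and 9448 CPM in Vil.Cre Maf.flox. The second control lay inside the Vil.Cre Maf.flox range, and the log2 fold change was 0.16. mt-Co1, which stands between the classes with 30.8% of its stretches shared, had 0.08, with controls from 20983 to 28260 CPM and Vil.Cre Maf.flox libraries from 23698 to 29196 CPM, which overlapped. mt-Atp8, a small subunit of the ATP synthase, had 0.33 with overlap.

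Among the genes with nuclear copies, mt-Nd4l had 228, 244 and 226 counts in the controls and 679, 235 and 387 counts in Vil.Cre Maf.flox, or 9.59, 12.7 and 10.7 CPM against 34.4, 13.8 and 16.6 CPM. The first Vil.Cre Maf.flox library stood far above the other two, giving a log2 fold change of 0.98 (SE 0.338, adjusted p = 0.219, edgeR). Left-out libraries moved it between 0.48 and 1.23. With the counts of its copy Gm10222 added, an alternative chosen after seeing the data, it was 0.70 (SE 0.232, adjusted p = 0.196, edgeR). mt-Co2, which receives electrons from cytochrome c, had 227.1, 208.8 and 205.7 CPM in the controls and 344.0, 448.3 and 217.3 CPM in Vil.Cre Maf.flox, so replicate 3 lay among the controls. Its log2 fold change of 0.65 (SE 0.235, adjusted p = 0.228, edgeR) became 0.45 with the copy's counts added. mt-Co3, the third core subunit of complex IV, had 96.8, 88.6 and 87.1 CPM in the controls and 116.9, 136.7 and 98.2 CPM in Vil.Cre Maf.flox, a log2 fold change of 0.37 that was 0.38 with the copy added. mt-Atp6, the proton channel subunit of the ATP synthase, had 0.19 and 0.22 in the same fits, mt-Nd4 0.04 and 0.05, mt-Nd3 0.06 and 0.03, and mt-Co1 0.08 and 0.09. No subunit passed the adjusted threshold with the copies added, where 0.568% of all genes did.

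Nuclear subunit genes also have copies. Atp5l, a membrane subunit of the ATP synthase, shared 69.0% of its 100-base stretches with other annotated transcripts, held by 14 other genes of which the processed pseudogene Gm10221 shared the most, and it had a log2 fold change of 0.13. It was the only nuclear subunit above 50%. Ndufb4 shared 33.4%, Atp5h 29.5% and Ndufs3 19.9%, with the pseudogenes Ndufb4c, Gm10250 and Gm12251 sharing the most, and Atp5o shared 30.3%, the most with a further gene record of the same name, so part of the counts of these genes cannot be assigned with certainty. In other genes the sequence shared was mainly that of a gene overlapping on the opposite strand, at 28.2% for Ndufb6 (Smim27), 24.0% for Ndufa13 (Tssk6) and 22.7% for Uqcrc2 (Pdzd9). Exons of 28 subunit genes overlap those of a gene on the opposite strand, and without strand reads from the 2 genes cannot be told apart there.

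Genes that build the complexes were described in the same way. None of the assembly factors was called by edgeR or DESeq2, which called 0.546 and 5.64% of all genes. At an unadjusted p under 0.05 in edgeR, 2, 0, 2, 4 and 0 were higher and 0 lower for complexes I to V in order. Of all genes, 7.11% were higher and 9.25% lower at that level. The median log2 fold change was 0.25 for 13 factors of complex I (11 above 0), 0.17 for 4 of complex II (3 above 0) and 0.22 for 6 of complex III (5 above 0). It was 0.11 for 18 of complex IV (14 above 0) and 0.15 for 3 of complex V (3 above 0). The smallest p in each list belonged to Foxred1 and Ecsit for complex I, at 0.34 and 0.30, Sdhaf1 and Sdhaf2 for complex II, at 0.36 and 0.12, and Bcs1l, which inserts the Rieske protein, and Uqcc2 for complex III, at 0.34 and 0.30. For complex IV these were Cox10, a haem A synthesis enzyme, and Coa5, at 0.43 and 0.29, and for complex V Atpaf2 and Tmem70, at 0.15 for both. Subunits whose symbols fall outside the rule had a median of 0.18 over 6 genes, with Cyc1, cytochrome c1 of complex III, at 0.37 and Ndufab1, the acyl carrier subunit of complex I, at 0.27. Electron carriers and their makers had a median of 0.18, with 15 of 17 above 0. The quinone synthesis genes Coq7 and Coq8a lay on opposite sides, at 0.48 (adjusted p = 0.107, edgeR) and -0.47 (adjusted p = 0.118, edgeR), each without overlap. DESeq2 called both (adjusted p = 0.0256 and 0.0395) and Cyc1 (adjusted p = 0.0468), and edgeR called Coq7 with no filter on low counts (adjusted p = 0.0469) and without Maf.flox replicate 3 (adjusted p = 0.0304).

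Mitochondrial ribosomal proteins translate the mRNAs of the mitochondrial genome. Of 77 tested, 74 had a higher mean in Vil.Cre Maf.flox, against 48.4% of all genes, and the median log2 fold change was 0.22. At an unadjusted p under 0.05 in edgeR, 32 were higher and 0 lower, where 7.11% of all genes were higher and 9.25% lower. None was called in edgeR with all 6 libraries. Without Maf.flox replicate 3, where 5% of all genes were called, edgeR called Mrpl55 (adjusted p = 0.043) and Mrps25, the latter named for that call after its values were seen. Mrpl55 and Mrpl51 had 0.49 and 0.39, the smallest p of the list. DESeq2 called 4 of the 77, all higher, where it called 5.64% of all genes. These were Mrpl55 (adjusted p = 0.0275), Mrpl51 (adjusted p = 0.0267) and, named for that call after their values were seen, Mrpl16 and Mrpl54. Protein-coding genes whose symbols begin with Rpl or Rps, mostly cytosolic ribosomal proteins, had a median of 0.06 over 88 tested, of which 70 were above 0. Of these 88, 0 had an unadjusted p under 0.05 in edgeR and 0 were called by DESeq2. The symbols also take in Rps19bp1, which is no ribosomal protein, and copies such as Rpl27-ps3, whose reads may belong in part to its parent gene. Rpl27-ps3 and Rps21 had the smallest p, at 0.57 and 0.22. Genes of the tricarboxylic acid cycle had a median of 0.17, with 14 of 18 above 0 and Pdhb and Fh1 at 0.32 and 0.33. In edgeR 0 were called, with 4 higher and 0 lower at an unadjusted p under 0.05, where 7.11 and 9.25% of all genes were. DESeq2, which called 5.64% of all genes, called Pdhb alone of the 18 (adjusted p = 0.0498).

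Among these lists of other genes, edgeR's test with the filter, all 6 libraries and genotype as the only term called 1 gene, in glycolysis. The same test called 0.546% of all genes. Hk2, a hexokinase that binds mitochondria, rose from 53.4 ± 1.24 to 101.0 ± 18.6 CPM (SD, n = 3 each), a log2 fold change of 0.92 (SE 0.133, adjusted p = 0.0315, edgeR). In edgeR the call was lost with a term for sex (adjusted p = 0.0529) and without any 1 of the libraries except Maf.flox replicate 3, with adjusted p from 0.0157 to 0.13 over the libraries left out. Over 15 glycolysis genes the median was 0.30, with 13 above 0, and Pgk1 had 0.46. DESeq2, which called 5.64% of all genes, called Hk2, Pgk1 (adjusted p = 0.0325) and Aldoa, the last named for that call after its values were seen.

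Regulators of mitochondrial biogenesis did not lie above 0 as a list. Of 11 genes, 5 were above 0 and the median log2 fold change was -0.02. Neither edgeR nor DESeq2 called any. At an unadjusted p under 0.05 in edgeR, 0 were higher and 2 lower, where 7.11% of all genes were higher and 9.25% lower. Ppargc1a, a coactivator of respiratory gene transcription, had 32.5 ± 3.37 CPM in the controls and 25.02 ± 1.57 CPM where Maf was deleted (SD, n = 3 each), without overlap and with a log2 fold change of -0.38 (SE 0.114, adjusted p = 0.162, edgeR). Ppara, a nuclear receptor of fatty acid oxidation, had -0.42 (SE 0.139, adjusted p = 0.191, edgeR). Nrf1 and Gabpa, added after their values were seen because their motifs were searched, had 0.03 and 0.00388. Among 13 genes of mitochondrial transcription and replication the median was 0.11 with 10 above 0, and Lrpprc, which stabilises mitochondrial mRNAs, and Tfb1m had 0.28 and 0.32.

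Markers of other cells that a sort can hold were set beside these values. The summed CPM of 7 leukocyte markers was 1810 to 2057 in the controls and 2871, 2584 and 1961 where Maf was deleted (replicates 1, 2 and 3 in order), the order that the nuclear subunits had in that group. This order was not particular to leukocyte markers. The sum of 5 enteroendocrine markers was 255.4 to 666.4 CPM in the controls and 427.8, 316.4 and 219.5 CPM in Vil.Cre Maf.flox, the same order. Crypt stem cell and tuft cell sums had the reverse order in that group. Nearly all of the leukocyte sum was Cd74, the chain that accompanies MHC class II, which epithelial cells can also express, at 1783 to 2026 CPM and 1932 to 2838 CPM. Of the 4 leukocyte markers tested, 2 had a higher and 2 a lower mean in Vil.Cre Maf.flox. Itgam, an integrin chain of myeloid cells, had 5.72, 7.18 and 7.49 CPM in the controls and 15.3, 11.6 and 10.8 CPM in Vil.Cre Maf.flox, without overlap (log2 fold change 0.89, SE 0.191, adjusted p = 0.0795, edgeR). Ptprc, the gene of CD45, had 0.285 to 2.29 CPM and 0.101 to 0.587 CPM and Lyz2 0.336 to 0.521 and 0.257 to 0.411 CPM in the same order. Lcp1, an actin-binding protein of blood cells, had a log2 fold change of -0.12 with overlap. The T and B cell genes Cd3e and Cd79a had 0 to 2 and 0 to 4 counts per library. Summed tuft cell markers were 15.5 to 62.4 CPM and 13.1 to 14.5 CPM, Paneth cell markers 2603 to 17325 and 3589 to 5354, goblet cell markers 12265 to 27425 and 12429 to 23305, and crypt stem cell markers 1849 to 2615 and 1608 to 2224 in Maf.flox and Vil.Cre Maf.flox. The part of cell composition in the subunit values was not tested.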

How the data were processed

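The deposited table holds whole-number counts and FPKM for 6 libraries. Per the labels' protocols, mRNA was captured from total RNA on poly-T beads and primed with random hexamers, and whether libraries kept strand is not said. Per the submitters' processing notes, the GRCm38 (mm10) build was used with featureCounts 1.5.0-p3, HISAT2 2.0.5 and DESeq2. The counts deposited by the authors are not normalised and were tested here. The FPKM values deposited by the authors were used only to compare levels between genes, and rest on the table's gene lengths.

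Genes were kept by filterByExpr (least count 10), scaled by TMM and tested with edgeR 4.0.16 (R 4.3.3, quasi-likelihood F test, robust, genotype as the only term), with Benjamini-Hochberg adjustment over 13740 genes, of which 75 were called (26 higher, 49 lower). Libraries held 17464355 to 24802525 counts, so that 1 CPM stands for 17.5 to 24.8 counts. No 2 replicates of a group agreed within sampling noise (chi-square per gene from 35.2 to 133). Replicate numbers were not taken as pairs, since the correlations of same-numbered libraries' deviations were 0.09, -0.02 and 0.27.

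The members and gene lists were chosen with earlier results of these data known. Genes were named by a rule: every mitochondrially encoded and every called subunit, the 3 smallest p and the largest change per complex, catalytic core subunits, isoform pairs, highest and lowest levels, X-linked members, and the 2 smallest p of each other list. An item that this rule takes is not reported here. Shared sequence was counted as stretches of 100 bases of GENCODE M21 transcripts found in another gene's transcripts, on either strand. All 93 genes were in that annotation, 87 with the same start and end. Alternatives were other scaling (RLE, upper quartile, library sizes without mitochondrial genes), a stricter filter or none, limma-voom (limma 3.58.1), DESeq2 1.42.0, an FDR of 0.1, a replicate block, a term for sex, another assignment to complexes and each library left out. Values within each sex and counts with nuclear copies added were chosen after seeing the data.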

Additional observations from a re-analysis of the deposited data

How the results depend on the processing

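The median log2 fold change stayed above 0 in every alternative run, between 0.12 and 0.34 for nuclear and between 0.14 and 0.26 for mitochondrially encoded subunits. The nuclear median less the mitochondrial one was 0.10 and ran from -0.0372 to 0.14, below 0 within the female libraries, where its sign turned. The nuclear median within the female libraries, 0.12, moved by more than the spread between replicates. The number of genes called over the whole table, 75, became 365 with no filter, 760 with DESeq2, 30 with limma-voom, 38 with a term for sex and 372 at an FDR of 0.1, and 8 to 701 with 1 library left out, most without Maf.flox replicate 3. The number of subunits called, 0, became 1 (Atp5g1) with no filter and at an FDR of 0.1, 10 with DESeq2, and 0 to 1 with 1 library left out. The cause of these shifts was not tested.

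The replicate block called 440 genes and 1 subunit, Atp5g1 (adjusted p = 0.0291). Same-numbered libraries did not all deviate together, and Maf.flox replicate 1 correlated best with Vil.Cre Maf.flox replicate 2 (0.33), so a shared number was not read as a pair.

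Signs that turned belonged to small differences: Ndufa6 was 0.00356 with upper quartile factors and Cox7a1 -0.0566 with a term for sex. With 1 library left out the ranges were -0.0325 to 0.176 for mt-Nd3, -0.0423 to 0.168 for mt-Nd4, -0.0318 to 0.183 for mt-Co1, -0.0349 to 0.375 for mt-Atp6, -0.065 to 0.0793 for Ndufa6, -0.121 to 0.203 for Cox7a1, -0.0158 to 0.222 for Ndufb2, -0.0302 to 0.282 for Atp5s, -0.0183 to 0.0956 for Nrf1 and -0.0454 to 0.0678 for Gabpa. At 0 to 5 counts per library, Cox6a2 and Cox8b were too shallow for a test under the filter.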
